A study of Mus musculus with 12 samples.

Results

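Neurotransmitter-gated receptors are the membrane proteins through which a cell senses glutamate, GABA, glycine and acetylcholine. The genes described here were chosen by symbol: the protein-coding GENCODE M21 genes of the AMPA (Gria), kainate (Grik), NMDA (Grin), delta (Grid) and metabotropic (Grm) glutamate receptors, the GABA-A and GABA-B receptors, the glycine receptors and the alpha and beta subunits of the nicotinic acetylcholine receptors, Chrna1 and Chrnb1 of the muscle type included. They are 64 of the 54356 genes to which reads were summed. Of these 64 genes, 33 had 10 or more reads in at least 2 of the 12 libraries. With a minimum of 5 reads there were 42 such genes, and with 20 reads there were 28.

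The libraries were made from RNA of C57BL/6 mouse cultures labelled as astrocytes, the glial cells that surround synapses and clear transmitter. The cultures came from cortex or midbrain, and no age is given. Mock cultures in growth medium were compared with cultures carrying a short hairpin RNA against PTB (shPTB) and kept in neuronal differentiation medium for 2 or 4 weeks, with 2 libraries in each of the 6 groups. PTB, the product of Ptbp1, is a splicing repressor, and the series asks how its depletion shifts expression from an astrocyte to a neuron pattern. Hairpin and medium differ between the same groups, so what each does cannot be told apart, and no mock culture in differentiation medium is among the samples. The labels do not say that the paired libraries came from separate cultures or animals, so each p-value measures the spread between libraries, which may be technical.

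Ionotropic receptors are ion channels built from several subunits. AMPA, kainate, NMDA and nicotinic channels pass cations and excite a neuron, and GABA-A and glycine channels pass chloride and usually inhibit a mature one. Metabotropic glutamate and GABA-B receptors act through G proteins. Astrocytes are known to carry some of them, and the subunit makeup of a channel sets its kinetics, its calcium permeability and its drug sensitivity.

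The libraries held 6022098 to 11385761 reads. Values are CPM, the count of a gene's reads scaled to a library of common size by TMM factors, given in each group as the 2 libraries in turn or as mean ± SD (n = 2). A library without a read of a gene could still hold up to 3 reads, which is 0.163 to 0.576 CPM. Log2 fold changes carry their standard error (SE), and "called" means an adjusted p under 0.05 over all 14607 genes tested, by edgeR. In cortex Ptbp1 measured 212 ± 55.3 CPM in mock, 73.3 ± 0.357 at 2 weeks and 89.9 ± 0.931 at 4 weeks. In midbrain it measured 229 ± 29.8, 98.0 ± 10.2 and 162 ± 9.84 CPM, and the last of these differences was not called (log2 fold change -0.50 ± 0.20, adjusted p = 0.0744). Mitochondrial genes held 16.9 to 22.7% of the reads in mock and 36.4 to 48.3% in shPTB libraries. All 17 astrocyte markers had reads in every group (summed level 12546 to 25119 CPM), and the 15 neuron markers summed to 278 to 406 CPM in mock, 293 to 376 at 2 weeks and 223 to 257 at 4 weeks. Of 13 neuron markers tested, 6 were higher and 4 lower in cortex at 2 weeks, 3 and 5 at 4 weeks, 3 and 4 in midbrain at 2 weeks and 3 and 7 at 4 weeks. Their median log2 fold change was 0.30, -0.14, -0.04 and -2.07 in that order. Of all 15 neuron markers, 1 was without reads in each cortical shPTB group (Elavl4) and 2 in midbrain at 4 weeks (Elavl4 and Nefl). In both mock groups and in midbrain at 2 weeks 0 were without reads. The 15 microglia markers fell from 1607 to 2312 CPM in mock to 137 to 173 at 2 weeks and 84.8 to 106 at 4 weeks, with 13 of 14 tested lower in each comparison with mock. Summed ependymal markers went from 170 to 222 CPM in mock to 15.6 to 63.3 in shPTB. Of 8 tested, 7 and 6 were lower in cortex at 2 and 4 weeks. In midbrain 7 were lower and 1 higher at each time. Fibroblast and pericyte markers summed to 832 to 2225 CPM in mock and 51.8 to 345 in shPTB, but single markers went both ways. Of 12 tested, 4 were higher and 6 lower in cortex at 2 weeks, and 2 and 6 at 4 weeks. In midbrain 4 were higher and 5 lower at 2 weeks, and 4 and 6 at 4 weeks. Oligodendrocyte and precursor markers summed to 170 to 192 CPM in mock cortex and 429 to 470 in cortical shPTB libraries. In midbrain their sum lay between 235 and 299. Of 11 tested, 7 were higher and 2 lower in cortex at 2 weeks, and 6 and 3 at 4 weeks. In midbrain 6 were higher and 2 lower at 2 weeks, and 3 and 2 at 4 weeks. The part of these changes in the receptor results was not tested. In bulk RNA, fewer cells of a type and less RNA per cell cannot be told apart.

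Every family was present, most of them in part. All 4 AMPA and both GABA-B genes were detected, with 6 of 7 NMDA, 3 of 5 kainate, 1 of 2 delta, 2 of 8 metabotropic glutamate, 8 of 17 GABA-A, 1 of 5 glycine and 5 of 13 nicotinic genes. Grid2ip, an adaptor of the delta receptor whose symbol meets the rule, was detected as well. Among the 31 genes below the minimum, 5 had no read in any library: Gabra6, Gabrr3, Glra3, Chrna6 and Chrna9. A further 11 had 12 reads or fewer in all libraries together, among them Chrna7, a nicotinic subunit that forms channels on its own, with 10. The remaining 15 reached at most 48 reads in all. The filter of the test passed 34 genes, a gene below this minimum among them.

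More receptor genes rose than fell against mock in each of the 4 comparisons, a balance that turned at 4 weeks in both regions when libraries were scaled to total reads. In cortex at 2 weeks 17 of the 34 tested genes were called, 14 higher and 3 lower, beside 35% of all genes tested (17.5% higher, 17.6% lower). Cortex at 4 weeks gave 21 calls, 14 higher and 7 lower, beside 39.4% of all genes (18.5% higher, 20.9% lower). Midbrain gave 16 at 2 weeks, 14 higher and 2 lower, beside 30.6% (15.9% higher, 14.7% lower). At 4 weeks midbrain gave 19, 12 higher and 7 lower, beside 39.2% (18.7% higher, 20.4% lower). The median log2 fold change of the 34 genes was 0.82, 0.71, 0.77 and -0.09 in that order, and that of all genes tested -0.11, -0.12, -0.07 and -0.15. Placing a gene without reads in a group at its bound left these medians where they were. All 34 genes passed a filter on low counts, and a gene that passed it only through the group where it was high had to differ, so these counts describe the tested genes and not all 64.

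The direction of the weaker changes depends on the scaling. With libraries scaled to total reads instead of TMM, the median of all genes moved to -0.85, -1.21, -0.74 and -1.01. The receptor calls then split 12 higher to 7 lower in cortex at 2 weeks and 10 to 14 at 4 weeks. In midbrain they split 11 to 4 at 2 weeks and 9 to 13 at 4 weeks. Of all 14607 genes tested, 7317, 9201, 6833 and 8328 were called with this scaling, in the same order. Leaving out a single library moved the midbrain counts most, to 10 without the second 2-week library and to 11 without the first 4-week library.

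**Figure D1:**
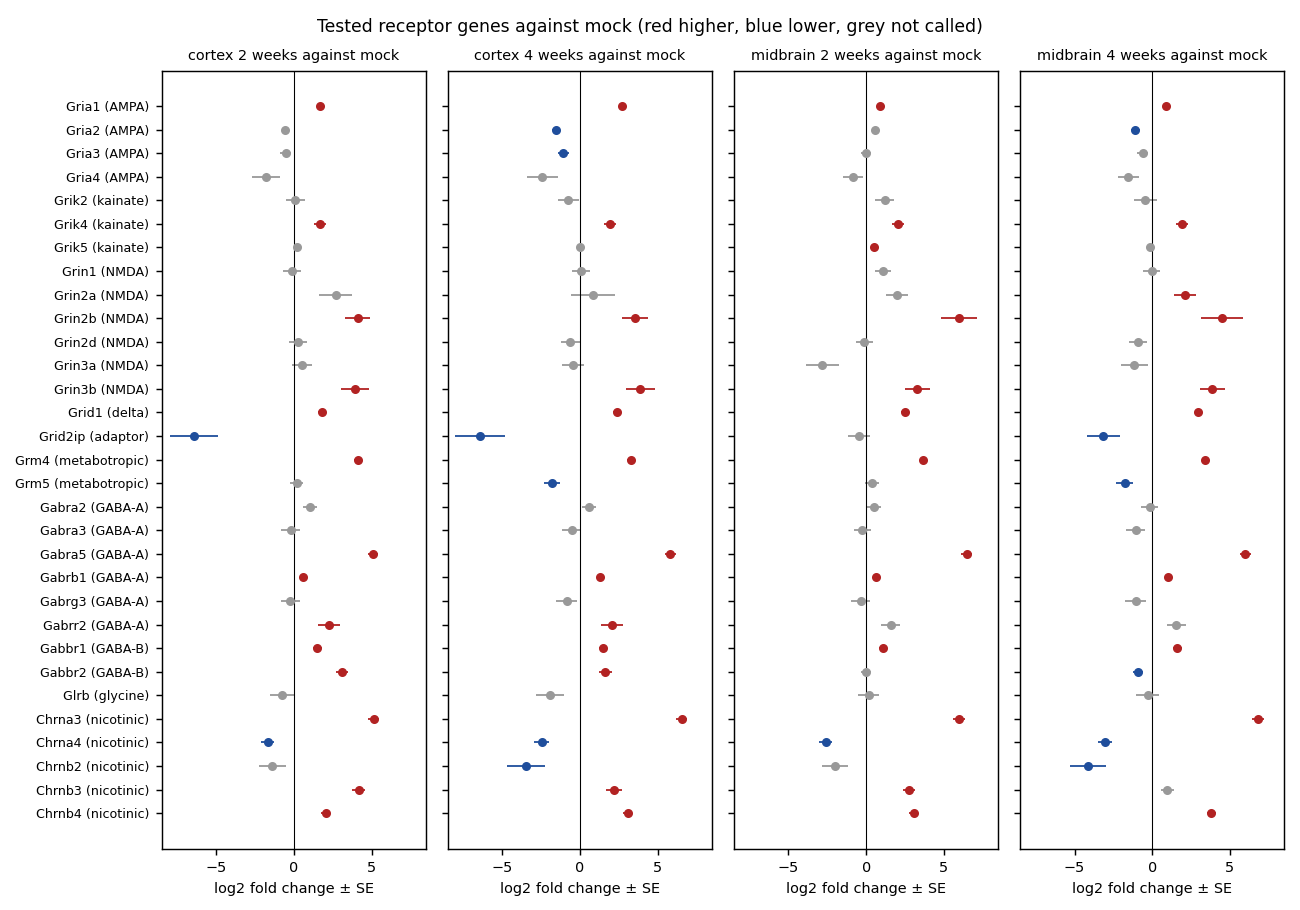
Log2 fold change against mock with its SE (horizontal axis) for 31 of the 34 tested receptor genes, ordered by family, in the 4 comparisons with mock. Red points were called higher and blue lower, and grey points were not called: 11 genes are red in all 4 panels and Chrna4 is blue in all 4.

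Of the 34 genes, 24 were called in at least 1 comparison with mock, beside 56.7% of all genes tested, and 10 in none. Called higher in all 4 were 9.12% of all genes and 11 receptor genes: Gria1, Grik4, Grin2b, Grin3b, Grid1, Grm4, Gabra5, Gabrb1, Gabbr1, Chrna3 and Chrnb4. Among the 11, Grin2b had at most 2 reads in a mock library and Grin3b at most 4. Both passed the count filter only through shPTB groups, so their direction was fixed by it. Reads of Grin3b also cannot be told from those of Tmem259. With scaling to total reads, Gabrb1 kept none of its 4 calls and Gria1 lost those in midbrain. Chrna4 was among those called lower in all 4, beside 9.34% of all genes. The same mock libraries serve as control at both times, so calls at 2 and 4 weeks share them. Gabbr2 was the 1 gene called in both directions, higher in cortex and lower in midbrain, beside 0.739% of all genes called both ways.

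Summed over all 64 genes, the level was 221 to 296 CPM in mock, 567 to 609 at 2 weeks and 606 to 758 at 4 weeks. Nicotinic genes summed to 13.2 to 21.6 CPM in mock, 62.2 to 68.6 at 2 weeks and 102 to 146 at 4 weeks. GABA-B genes summed to 63.3 to 112 CPM in mock and 169 to 264 in shPTB libraries. Metabotropic glutamate receptor genes summed to 4.59 to 5.70 CPM in mock, 26.8 to 49.5 at 2 weeks and 12.1 to 39.4 at 4 weeks. AMPA genes summed to 31.6 to 42.4 CPM in mock and 52.6 to 109 in shPTB, GABA-A genes to 39.2 to 59.3 and 106 to 163, and delta genes to 2.50 to 6.13 and 12.1 to 26.9. In these 6 families no shPTB library overlapped a mock library. With CPM computed from total reads, without TMM factors, this held for the nicotinic, GABA-B and delta genes, while the AMPA sums (38.5 to 69.4 in mock, 43.4 to 74.0 in shPTB), the GABA-A sums (53.6 to 93.7 and 89.0 to 119) and the metabotropic sums (6.20 to 9.31 and 8.29 to 47.1) overlapped. The kainate sum, 40.8 to 50.4 CPM in mock and 44.9 to 72.6 in shPTB, overlapped, as did the NMDA sum, 3.66 to 10.1 against 5.76 to 14.3. Reads lie near transcript ends and the genes differ in length, so the families' sums were not compared with each other.

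**Figure D2:**
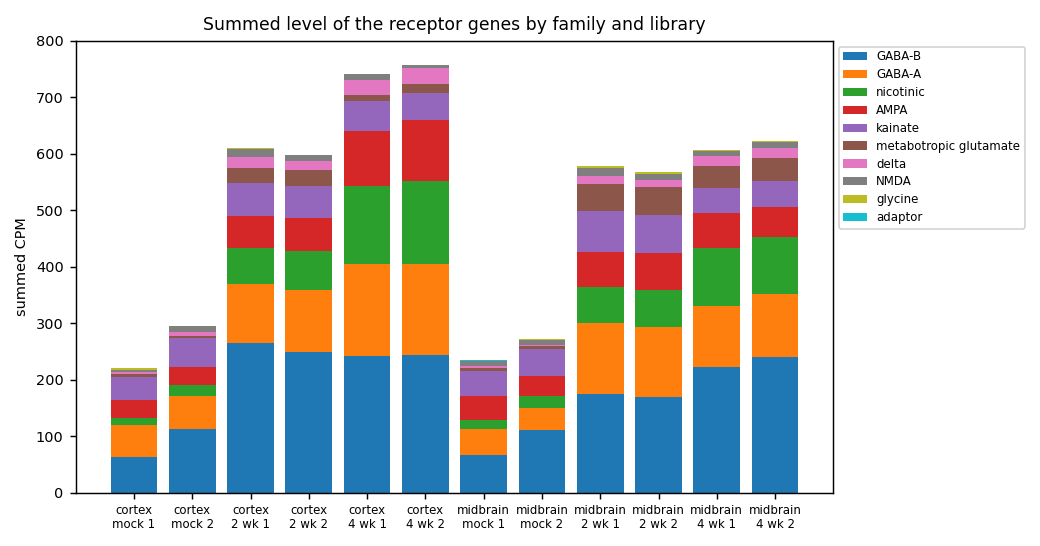
Summed CPM (vertical axis) of the 64 receptor genes in each of the 12 libraries, stacked by family from GABA-B at the bottom to the adaptor Grid2ip at the top. With TMM scaling, the 4 mock libraries reach 221 to 296 CPM and the 8 shPTB libraries 567 to 758. Computed from total reads, not drawn, they reach 360 to 383 and 496 to 541.

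Nicotinic genes moved in both directions. Chrna3 and Chrnb4 encode the alpha and beta subunits of the receptor of autonomic ganglia, Chrnb3 an accessory subunit, and Chrna4 and Chrnb2 the subunits of the main high-affinity nicotinic receptor of brain. Of these 5, 3 were higher and 1 lower at 2 weeks in both regions, and at 4 weeks 3 were higher and 2 lower in cortex and 2 higher and 2 lower in midbrain. The promoters of Chrna3, Chrnb4 and the GABA-A gene Gabra5, which rose with them, are shown with that of Chrna4, which fell. Each runs 5′ to 3′ over 250 bases before and 50 after the RefSeq start on GRCm38.p6, and capitals mark E-boxes (CANNTG), the motif bound by basic helix-loop-helix proteins, which include proneural factors. The places are chr9:55026513-55026812 for Chrna3, chr9:55048495-55048794 for Chrnb4, chr7:57510010-57510309 for Gabra5 and chr2:181039128-181039427 for Chrna4, all on the minus strand.
Chrna3: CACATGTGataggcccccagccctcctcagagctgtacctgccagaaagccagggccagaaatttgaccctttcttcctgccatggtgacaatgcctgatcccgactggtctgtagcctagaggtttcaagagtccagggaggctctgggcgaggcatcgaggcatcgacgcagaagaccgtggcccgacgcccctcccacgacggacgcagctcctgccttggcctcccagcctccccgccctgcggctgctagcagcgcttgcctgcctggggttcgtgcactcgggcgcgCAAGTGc
Chrnb4: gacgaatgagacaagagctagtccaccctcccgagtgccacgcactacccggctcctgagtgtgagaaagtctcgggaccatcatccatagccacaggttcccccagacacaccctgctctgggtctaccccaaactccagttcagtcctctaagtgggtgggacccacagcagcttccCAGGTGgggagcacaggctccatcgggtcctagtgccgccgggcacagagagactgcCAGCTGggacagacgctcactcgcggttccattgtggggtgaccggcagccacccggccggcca
Gabra5: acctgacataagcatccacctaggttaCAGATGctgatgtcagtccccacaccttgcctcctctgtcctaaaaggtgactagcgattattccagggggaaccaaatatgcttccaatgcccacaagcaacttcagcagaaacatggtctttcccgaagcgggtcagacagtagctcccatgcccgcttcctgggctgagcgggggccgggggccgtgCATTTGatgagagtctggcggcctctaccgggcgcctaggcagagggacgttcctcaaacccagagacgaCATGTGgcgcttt
Chrna4: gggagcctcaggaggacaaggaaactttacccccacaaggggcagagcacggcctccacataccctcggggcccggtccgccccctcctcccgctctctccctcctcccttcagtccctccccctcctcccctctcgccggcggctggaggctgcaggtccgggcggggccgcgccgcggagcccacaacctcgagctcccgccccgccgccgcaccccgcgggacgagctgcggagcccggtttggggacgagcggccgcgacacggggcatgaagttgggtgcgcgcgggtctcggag
Chrna3 and Gabra5 each hold 3 E-boxes, with a pair that overlaps in Chrna3, Chrnb4 holds 2 and Chrna4 none. Other genes do not follow this split: the risers Gabbr1, Gabrb1 and Grik4 hold none, and Chrnb2, which fell, holds 2. Of the 11 genes called higher in all 4 comparisons, 7 have a window, and 4 of their 8 windows hold an E-box. The GC box (GGGCGG on either strand), bound by Sp-family factors, occurs 3 times in Chrna4, once in Chrna3 and in neither of the others. RefSeq windows matched 45 of the 64 genes, with 54 windows in all. An E-box is in 30 of the 54 and in 72.3% of all 32851 mouse promoters of this length, a GC box in 29 of the 54 and in 35.7% of all, and the cAMP response element (TGACGTCA) in 0 of the 54 and 1.79% of all. These matches are descriptions of letters, and no binding was measured.

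Chrna3 rose from near the count floor in both regions. Cortical libraries held 0.639 and 1.99 CPM in mock, 40.6 and 48.2 at 2 weeks and 111 and 123 at 4 weeks. Midbrain libraries held 0.597 and 0.835 CPM, then 44.8 and 47.5, then 80.8 and 80.9. Every shPTB library lay above every mock library, and every 4-week library above every 2-week library. Against mock, the log2 fold change was 5.13 ± 0.37 and 6.53 ± 0.38 in cortex and 6.00 ± 0.39 and 6.81 ± 0.39 in midbrain at 2 and 4 weeks, with the highest adjusted p at 3.4e-06.

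Chrnb4 rose as well, by smaller folds. Mock cortex held 2.67 and 2.39 CPM, cortex 10.3 and 10.7 at 2 weeks and 24.2 and 18.3 at 4 weeks. Mock midbrain held 1.57 and 0.835 CPM, midbrain 10.1 and 10.3 at 2 weeks and 17.4 and 17.0 at 4 weeks. The log2 fold changes were 2.04 ± 0.27 and 3.06 ± 0.27 in cortex and 3.05 ± 0.29 and 3.80 ± 0.29 in midbrain, all called. Chrna3 and Chrnb4 are neighbours on chromosome 9 with 1591 bases between them, and the third gene of this cluster, Chrna5, lies 2331 bases from Chrna3 on the other strand. Chrna5, an accessory subunit, had 11 reads in all 12 libraries together.

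Chrnb3 rose early and came back down. Cortex held 0.349 and 0.239 CPM in mock, 5.05 and 6.17 at 2 weeks and 1.10 and 1.73 at 4 weeks. Midbrain held 0.651 and 0.514 CPM, then 3.51 and 4.41, then 1.11 and 1.21. The change was called in cortex at both times (4.17 ± 0.43 and 2.19 ± 0.49) and in midbrain at 2 weeks (2.73 ± 0.38), and midbrain at 4 weeks stood at 0.97 ± 0.43 (adjusted p = 0.10). The 4-week call in cortex was lost without the second 4-week library and with scaling to total reads. Its neighbour on chromosome 8, Chrna6, which pairs with it in dopamine neurons, had no read in any library.

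Chrna4 fell in both regions. Its level was 7.67 and 13.4 CPM in mock cortex, 3.74 and 2.76 at 2 weeks and 1.65 and 2.11 at 4 weeks. Midbrain went from 11.6 and 18.2 CPM to 3.51 and 1.32 and to 1.80 and 1.74. No shPTB library reached the lowest mock library. Against mock this gave log2 fold changes of -1.70 ± 0.44, -2.48 ± 0.48, -2.62 ± 0.43 and -3.06 ± 0.46 in the order cortex 2 and 4 weeks, midbrain 2 and 4 weeks. The first was lost without the second cortical 2-week library, and the second with a transcript length offset (-1.33). Chrnb2 fell from 36 reads in mock cortex to 1 at 4 weeks, a ratio of 12.9 (95% counting interval 2.17 to 523), and from 49 to 1 in midbrain, a ratio of 21.2 (3.63 to 854). Leaving out either 4-week library or the first mock library ended the cortical call, as did DESeq2, and leaving out the first mock or the first 4-week library ended the midbrain call. The last 500 bases of its main counted transcript lie wholly within exons of Adar on the opposite strand, and 94.9% of its reads were on that noncoding transcript, so reads of Chrnb2 and Adar cannot be told apart here.

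**Figure D3:**
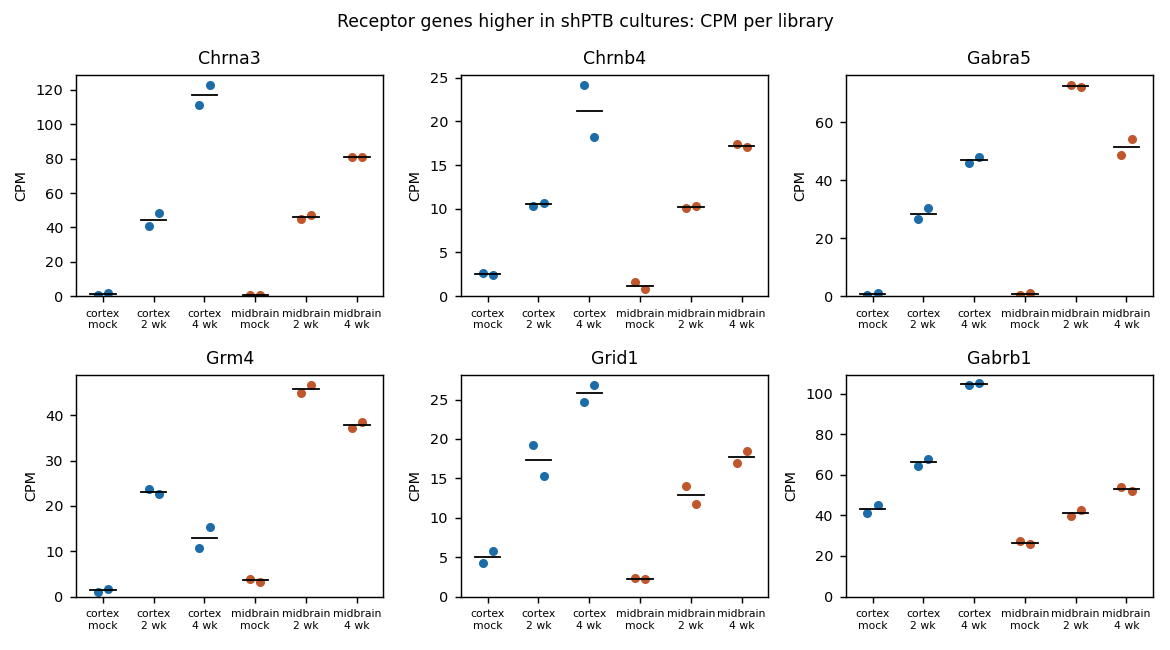
CPM (vertical axes, each from 0) of 6 receptor genes that were higher in shPTB cultures, in the 6 groups. Each point is a library and each bar the group mean (n = 2): in all 6 genes the shPTB libraries of a region lie above its mock libraries.

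Among the GABA-A genes, Gabra5 rose in all 4 comparisons with either scaling. With TMM scaling Gabrb1 rose in all 4 and Gabrr2 in both cortical ones, and with scaling to total reads neither was called in any of these. Gabra5, an alpha subunit of largely extrasynaptic receptors known from hippocampus, held 0.465 and 1.27 CPM in mock cortex, 26.6 and 30.3 at 2 weeks and 46.0 and 48.0 at 4 weeks. In midbrain it held 0.597 and 1.03 CPM, then 72.8 and 72.2, then 48.6 and 54.1. The lowest shPTB library was far above the highest mock library. Fitted log2 fold changes were 5.09 ± 0.35 and 5.81 ± 0.35 in cortex and 6.48 ± 0.35 and 5.98 ± 0.35 in midbrain. An antisense gene shares 266 exon bases with Gabra5, and nothing used here states whether counting was by strand, but none of the last 500 bases was shared.

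Gabrb1, a beta subunit, was already present in mock. Cortex held 41.1 and 45.3 CPM in mock, 64.4 and 68.0 at 2 weeks and 104 and 105 at 4 weeks. Midbrain held 27.5 and 25.7 CPM, then 39.5 and 42.6, then 53.9 and 52.0. The log2 fold changes of 0.62 ± 0.15 and 1.28 ± 0.15 in cortex and 0.62 ± 0.15 and 0.99 ± 0.15 in midbrain were called, and with scaling to total reads they were -0.12 and 0.20 in cortex and -0.05 and 0.11 in midbrain, with no call. At 2 weeks the call was also lost without either 2-week library of the region.

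Gabrr2, a rho subunit known from retina, held 0.174 and 0.318 CPM in mock cortex, 0.936 and 1.46 at 2 weeks and 0.549 and 1.54 at 4 weeks. Midbrain held 0.325 and 0.642 CPM, then 1.70 and 1.21, then 1.38 and 1.47. It was called in cortex at both times (2.28 ± 0.71 and 2.06 ± 0.73). Both calls were lost with scaling to total reads, and the 4-week one with DESeq2 and without a count filter. They were also lost without the first mock library or the second library of the time, and also without the first 2-week library or, at 4 weeks, the second mock library. Gabra2, Gabra3 and Gabrg3 were called in no comparison with mock, with group means from 0.749 to 4.25 CPM.

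Both GABA-B genes are needed for a working receptor, since Gabbr1 binds GABA and Gabbr2 couples to the G protein. Gabbr1 held 62.6 and 110 CPM in mock cortex, 255 and 239 at 2 weeks and 238 and 241 at 4 weeks. Midbrain libraries held 56.4 and 89.4 CPM, then 158 and 153, then 213 and 231. The mock libraries spread widely but none reached a shPTB library. On the log2 scale the changes were 1.52 ± 0.28 and 1.47 ± 0.28 in cortex and 1.10 ± 0.27 and 1.61 ± 0.28 in midbrain. The midbrain 2-week call was lost without either 2-week library, without the first mock library or with a length offset (highest adjusted p = 0.0909).

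The reads of Gabbr1 came from different places in the gene. Gabbr1 spans chr17:37045966-37075067 on the plus strand, and 69.2% of its reads were on the transcripts Gabbr1-202 and Gabbr1-209, which end at base 37049467, near the gene's start. The transcripts that reach the far end, Gabbr1-201 and Gabbr1-203, held 7.496 ± 0.226 CPM in mock cortex, 111 ± 2.11 at 2 weeks and 89.2 ± 0.246 at 4 weeks. In midbrain they held 8.11 ± 3.02, 51.5 ± 3.22 and 84.8 ± 4.48 CPM. The early-ending pair held 78.8 ± 33.7, 134 ± 7.41 and 149 ± 0.169 CPM in cortex and 64.0 ± 27.1, 101 ± 1.64 and 136 ± 17.4 in midbrain. The rise was thus steeper for the far-end transcripts, a description that was chosen after these values were seen and has no test.

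**Figure D4:**
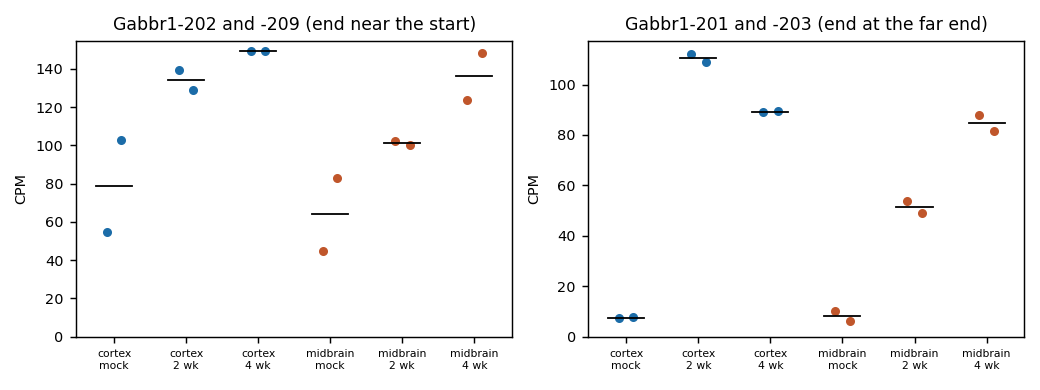
CPM (vertical axes from 0, with different scales) of the Gabbr1 transcripts that end near the gene's start (left) and of those that end at its far end (right), by group. Points are libraries and bars means (n = 2): the far-end transcripts lie at 5.98 to 10.2 CPM in the 4 mock libraries and at 49.2 to 112 CPM in the 8 shPTB libraries.

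Gabbr2 depended on region. Mock cortex held 0.755 and 1.35 CPM and mock midbrain 10.9 and 20.7. At 2 weeks cortex held 9.36 and 8.60 CPM and midbrain 16.0 and 15.4, and at 4 weeks cortex held 2.93 and 3.46 and midbrain 8.70 and 7.90. Cortex thus rose (3.11 ± 0.38, then 1.62 ± 0.42), and midbrain stood at -0.01 ± 0.30 at 2 weeks and fell at 4 weeks (-0.93 ± 0.31, adjusted p = 0.034). The midbrain fall was lost without the second mock library or either 4-week library and with DESeq2. In cortex the 4-week call was lost without the first mock or the second 4-week library, and with scaling to total reads.

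Glycine receptors were nearly silent. Glrb, the beta subunit that anchors the channel at synapses, was the gene detected. It held 2.44 and 0.398 CPM in mock cortex, 1.52 and 1.16 in mock midbrain, 0.811 to 1.92 at 2 weeks and 0.192 to 1.24 at 4 weeks. It was not called against mock, and 94.4% of its reads lay on a transcript typed as subject to nonsense-mediated decay, whose end at base 80843599 of chromosome 3 lies beyond that of the coding form at 80855629.

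Among the AMPA receptor genes, Gria1 was the 1 called higher against mock. Gria1, the subunit whose channels pass calcium when Gria2 is missing, rose in all 4 comparisons. It held 11.8 and 17.9 CPM in mock cortex, 47.4 and 48.5 at 2 weeks and 91.0 and 102 at 4 weeks. In midbrain it held 28.3 and 26.4 CPM, then 49.9 and 53.4, then 55.1 and 47.5. The groups did not overlap with mock in either region. Log2 fold changes against mock were 1.70 ± 0.21 and 2.71 ± 0.22 in cortex and 0.92 ± 0.20 and 0.91 ± 0.20 in midbrain. Scaling to total reads ended the midbrain calls (0.24 and 0.03), as did leaving out the second 2-week or the first 4-week midbrain library for its own time.

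Gria2, the subunit that blocks calcium entry through AMPA channels, held 10.7 and 9.15 CPM in mock cortex, 6.93 and 6.65 at 2 weeks and 3.30 and 3.46 at 4 weeks. Midbrain libraries held 2.98 and 3.15 CPM, then 5.32 and 3.97, then 1.24 and 1.61. At 4 weeks it was lower in both regions (-1.55 ± 0.26 and -1.10 ± 0.30), and at 2 weeks it stood at -0.55 ± 0.24 in cortex and 0.60 ± 0.25 in midbrain. The midbrain call was lost without the first 4-week library and with DESeq2. Most of these reads were on forms typed as noncoding or decayed: complete coding transcripts held 10.1 and 9.01% of them in mock cortex and midbrain and 44.9 and 71.4% at 4 weeks. Counted on complete coding transcripts alone, an alternative added after seeing the data, the 4-week change turned to 0.55 in cortex and 1.90 in midbrain. Neither passed the edgeR test (Benjamini-Hochberg adjusted p = 0.702 and 0.210). There were 1 to 22 such reads a library, and whether its coding forms changed was not settled.

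Gria3 held 6.80 and 3.82 CPM in mock cortex, 3.37 and 4.06 at 2 weeks and 2.38 and 2.69 at 4 weeks. Midbrain held 6.08 and 4.81 CPM, then 5.09 and 5.96, then 4.28 and 2.81. It was called lower in cortex at 4 weeks (-1.07 ± 0.37). That call was lost without the first mock library or either 4-week library, and with DESeq2. Gria4 lay at 0.716 to 5.05 CPM in mock and 0.183 to 2.15 in shPTB and was not called, with the cortical adjusted p at 0.14 and 0.076.

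**Figure D5:**
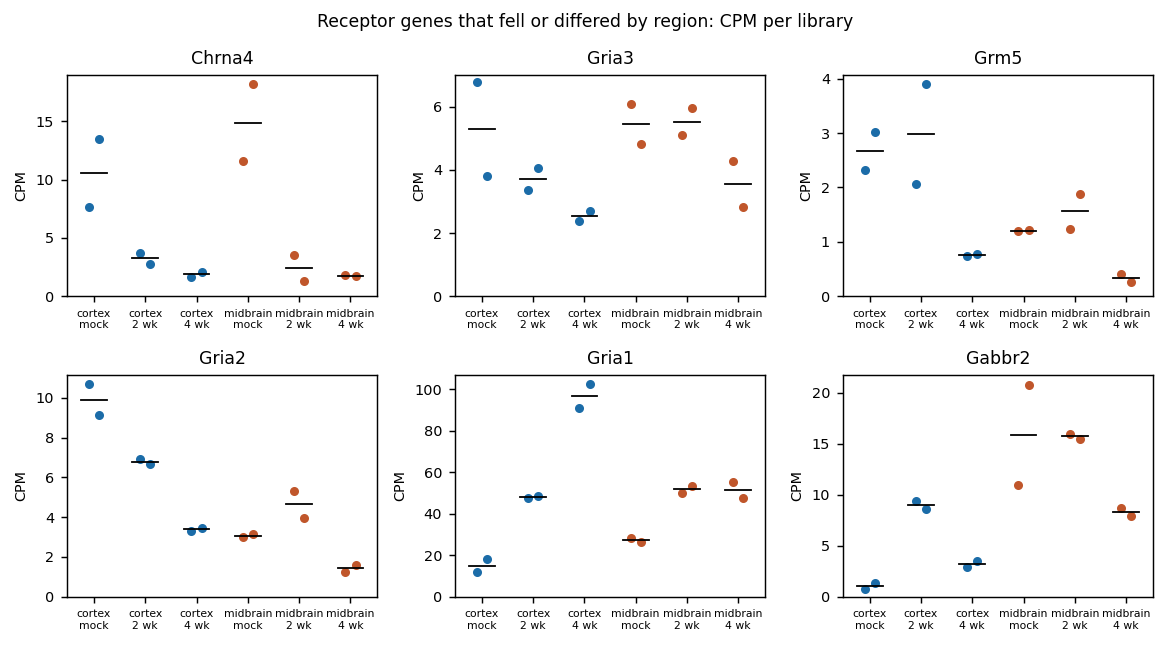
CPM (vertical axes, each from 0) of 6 receptor genes that fell or differed by region, in the 6 groups. Points are libraries and bars means (n = 2): Chrna4 is lower in every shPTB library than in any mock library, and mock cortex lies below mock midbrain for Gabbr2 and Gria1.

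Kainate receptor genes gave 1 steady riser. Grik4, a high-affinity subunit that needs a low-affinity partner to form a channel, held 1.51 and 2.71 CPM in mock cortex, 5.99 and 7.47 at 2 weeks and 9.34 and 6.34 at 4 weeks. Midbrain held 0.976 and 1.73 CPM, then 6.00 and 5.08, then 4.28 and 5.76. All shPTB libraries were above all mock libraries. The fitted changes (log2) were 1.69 ± 0.38, 1.91 ± 0.38, 2.03 ± 0.39 and 1.89 ± 0.39, and the first was lost without the second cortical 2-week library. Grik5, the other high-affinity subunit, stayed between 36.0 and 63.0 CPM in all 12 libraries with TMM scaling. It was called in midbrain at 2 weeks (63.0 and 59.4 CPM against 41.2 and 44.8, 0.51 ± 0.17, adjusted p = 0.042), a call that was lost without any 1 of those 4 libraries and was -0.16 with scaling to total reads. That scaling also put Grik5 at -0.52 and -1.07 in cortex at 2 and 4 weeks and at -0.99 in midbrain at 4 weeks. Grik2, a low-affinity partner, had group means of 0.749 to 2.71 CPM and was not called.

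Among the NMDA receptor genes the obligatory subunit Grin1 was not called. Those called higher, Grin2b, Grin3b and in 1 comparison Grin2a, had few reads. Grin1 held 0.963 to 1.59 CPM in mock and 0.691 to 2.54 in shPTB. Grin2d, an early-life subunit, held 1.51 to 6.80 CPM in mock and 1.54 to 6.79 in shPTB and was not called. Grin2b, the early subunit of cortical NMDA receptors, had 3 reads in mock cortex against 22 at 2 weeks and 14 at 4 weeks, ratios of 19.0 (95% counting interval 5.70 to 99.1) and 13.03 (3.64 to 70.7). It had none in mock midbrain against 14 at 2 weeks, at least 8.87-fold higher with the floor of 3 reads over the group. At 4 weeks its 2 reads in each midbrain library were called against that 0 (adjusted p = 0.026), and the call was lost without any 1 of those 4 libraries. The cortical 4-week call was lost without the first 4-week library, and both cortical calls with a length offset.

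Grin3b, a glycine-binding subunit known from motor neurons, had 3 reads in mock cortex against 20 and 18, ratios of 17.3 (5.12 to 90.7) and 16.8 (4.89 to 88.8). In midbrain it held 0.108 and 0.257 CPM in mock, 2.38 and 1.32 at 2 weeks and 2.07 and 3.48 at 4 weeks (3.29 ± 0.80 and 3.87 ± 0.79). The 2-week calls were lost without the first 2-week library of the region, and the midbrain one also without the first mock library. Of its last 500 bases, 88.1% are shared with Tmem259 on the opposite strand, so reads of both genes cannot be told apart here. Grin2a, the adult subunit, held 0.174 and 0 CPM in mock cortex, 1.12 and 0.325 at 2 weeks and 0 and 0.384 at 4 weeks. Midbrain held 0.651 and 0.385 CPM, then 2.26 and 1.99, then 2.21 and 2.41. It was called in midbrain at 4 weeks (2.12 ± 0.72), and that call was lost without any 1 of those 4 libraries and with scaling to total reads. Grin3a held 0 to 1.87 CPM and was not called against mock.

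Grid1, a delta receptor that links synapses through cerebellins, rose in all 4 comparisons. It held 4.24 and 5.81 CPM in mock cortex, 19.3 and 15.3 at 2 weeks and 24.7 and 26.9 at 4 weeks. Midbrain libraries held 2.33 and 2.18 CPM, then 14.0 and 11.8, then 17.0 and 18.5. Every shPTB library lay above every mock library. The log2 fold changes were 1.78 ± 0.23, 2.37 ± 0.23, 2.51 ± 0.24 and 2.97 ± 0.24. A noncoding transcript inside the end of the gene, Grid1-202, held 91.2% of the reads, and with complete coding transcripts alone the log2 fold changes were 1.30, 2.03, 2.38 and 3.13 in the same order. On those fewer reads the midbrain 4-week call held, and the highest adjusted p among the others was 0.244. Grid2ip had 33 reads in mock cortex and none at 2 or 4 weeks, at least 4.25-fold and 3.94-fold lower. Midbrain went from 24 reads to 1 at 4 weeks, a ratio of 10.4 (95% counting interval 1.69 to 427). The cortical calls were lost without either library of the time, and the midbrain call without either mock or either 4-week library. An antisense gene shares 94.0% of the last 500 bases of Grid2ip, so its reads are uncertain too.

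Metabotropic glutamate receptors gave 1 riser and 1 faller. Grm4, a group III receptor that lowers transmitter release, held 1.10 and 1.59 CPM in mock cortex, 23.8 and 22.6 at 2 weeks and 10.6 and 15.4 at 4 weeks. In midbrain it held 3.91 and 3.21 CPM, then 44.9 and 46.7, then 37.2 and 38.4. Midbrain lay above cortex in each state, and shPTB above mock in each region. Against mock this gave log2 fold changes of 4.11 ± 0.26 and 3.28 ± 0.26 in cortex and 3.68 ± 0.24 and 3.40 ± 0.23 in midbrain, with the highest adjusted p at 5.3e-06. Grm5, the group I receptor of young astrocytes, held 2.32 and 3.02 CPM in mock cortex, 2.06 and 3.89 at 2 weeks and 0.733 and 0.769 at 4 weeks. Midbrain held 1.19 and 1.22 CPM, then 1.24 and 1.88, then 0.414 and 0.268. It was lower at 4 weeks in both regions (-1.81 ± 0.50 and -1.79 ± 0.57), calls that were lost without either 4-week library, and in midbrain without either mock library or with DESeq2, and in both with a length offset. Grm3, which astrocytes are known to carry in vivo, was below the minimum with 25 reads in all.

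In the fit of all 6 groups, fewer receptor genes were called between 4 and 2 weeks than against mock. In cortex 4 were called, 3 higher and 1 lower, beside 2.77% of all genes (0.548% higher, 2.22% lower): Gria1 (1.01 ± 0.21), Gabrb1 (0.66 ± 0.15) and Chrna3 (1.40 ± 0.29) were higher at 4 weeks and Chrnb3 (-1.99 ± 0.40) lower. In midbrain 2 were called, both lower, beside 2.66% (0.958% higher, 1.7% lower): Gria2 (-1.69 ± 0.30) and Chrnb3 (-1.77 ± 0.39) were lower. More were called when only the groups compared were fitted, among receptor genes and among all genes, as given below. The fit of all 6 groups shares its spread with mock. Replicates differed over 2-fold in 18.4% of genes in mock cortex and 15.8% in mock midbrain. In shPTB groups this share was 6.44 to 10.5%. In the fit of all 6 groups, Chrnb3 was the gene called at both places. Leaving out any 1 of the 4 libraries of a comparison ended all of its calls.

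The regions differed in mock already. Of the 34 genes 5 were called between mock midbrain and mock cortex, beside 2.19% of all genes (1.25% higher, 0.938% lower). Gabbr2 (3.93 ± 0.36) and Grm4 (1.42 ± 0.26) were higher in midbrain, and Gria2 (-1.69 ± 0.24), Grid1 (-1.14 ± 0.24) and Gabrb1 (-0.70 ± 0.15) were lower. Without either midbrain mock library 3 were called, and 0 by edgeR when the 4 mock libraries were fitted alone, where no gene at all was called, 6 receptor genes had an unadjusted p under 0.05, and DESeq2 on all groups called 6. At 2 weeks 4 were called beside 2.94% (2.01% higher, 0.931% lower): Gabra5 (1.35 ± 0.27) and Grm4 (0.98 ± 0.21) were higher in midbrain and Gabrb1 (-0.69 ± 0.15) lower. The fourth, Grin3a, had 17 reads in cortex and 1 in midbrain, a ratio of 26.5 (95% counting interval 4.14 to 1105). Leaving out any 1 of the 4 libraries ended these calls. At 4 weeks 5 were called beside 7.99% (5.48% higher, 2.51% lower): Gabbr2 (1.38 ± 0.37) and Grm4 (1.54 ± 0.22) were higher in midbrain, and Gria1 (-0.91 ± 0.20), Gria2 (-1.24 ± 0.32) and Gabrb1 (-0.99 ± 0.15) were lower. Without any 1 of those 4 libraries 2 were called. Grm4 and Gabrb1 thus differed in the same direction in all 3 states, the first higher in midbrain and the second in cortex.

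The test of whether the regions answered differently called 1 gene at 2 weeks, beside 0.685% of all genes (0.424% higher, 0.26% lower), and 2 at 4 weeks, beside 2.55% (1.9% higher, 0.644% lower). Gabbr2 had a midbrain response below the cortical one at both times, by -3.12 ± 0.48 (adjusted p = 0.0142) and -2.55 ± 0.52 (adjusted p = 0.0268). Gria1 had one at 4 weeks (-1.80 ± 0.29, adjusted p = 0.00728). The Gabbr2 calls were lost without any 1 of the 4 shPTB libraries of the time, and at 4 weeks also without the first cortical mock library. The Gria1 call was lost without the second 4-week library of either region and with a length offset. All of these Gabbr2 and Gria1 calls were also lost when only the groups compared were fitted.

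Partner proteins that carry, cluster or modulate these receptors were called in part, and their numbers were not tested against those of all genes. Of all genes tested, 30.6 to 39.4% were called in these comparisons. In cortex 17.5% were higher and 17.6% lower at 2 weeks, and 18.5% and 20.9% at 4 weeks. In midbrain 15.9% were higher and 14.7% lower at 2 weeks, and 18.7% and 20.4% at 4 weeks. Of 28 tested partners of glutamate receptors, 9 were higher and 4 lower in cortex at 2 weeks, 7 and 6 at 4 weeks, 8 and 1 in midbrain at 2 weeks and 6 and 5 at 4 weeks, with medians of 0.49, 0.13, 0.38 and 0.18. Cacng5, an AMPA receptor auxiliary subunit, rose by 3.31 ± 0.19 and 3.78 ± 0.20 in cortex and 1.87 ± 0.18 and 1.61 ± 0.18 in midbrain. Grina, named for an NMDA receptor link, rose by 1.88 to 2.63 on the log2 scale. Neto1, a kainate receptor auxiliary subunit, fell in cortex by 3.24 and 4.04 and stood at 0.55 and 0.03 in midbrain, not called. Of 17 tested partners of GABA, glycine and acetylcholine receptors, 6 were higher and 4 lower in cortex at 2 weeks, 7 and 4 at 4 weeks, 6 and 3 in midbrain at 2 weeks and 5 and 3 at 4 weeks. Ric3, a chaperone of nicotinic receptors, rose by 1.44 to 1.79, and Agrn, which clusters the muscle type at the nerve ending, fell by 1.62 to 2.81. Of 5 tested subunits of other ligand-gated channels, 2 were lower in each cortical comparison and 1 in each midbrain one. Htr3a, a serotonin-gated channel, fell in all 4 comparisons by 3.19 to 4.21, and P2rx6, gated by ATP, fell in cortex by 1.12 and 1.05.

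The transcript forms limit what the gene counts say. Of the 34 tested genes, 23 had over 95% of their reads on complete coding transcripts and 9 had under 60%: Chrnb2, Gabra2, Glrb, Gria2, Gria3, Grid1, Grik5, Grin1 and Grm5. Complete coding here means typed protein-coding and not tagged as lacking the end, so a full-length receptor is not assured. Gabbr1 is among the 23, yet 69.2% of its reads were on transcripts that end near the gene's start. For Grik5, 95.5% of the reads were assigned to a form typed as subject to decay, and that form shares its last base with the coding one, so the division rests on reads away from the end. For Chrna3, Chrna4, Chrnb3, Chrnb4, Gabra5, Gabrb1, Gria1, Grik4 and Grm4 every read was on a complete coding transcript. Gabra5 reads, few in mock, were all assigned to Gabra5-202 there and all to Gabra5-201 in shPTB libraries. These forms end at bases 57407719 and 57407672 of chromosome 7, and a change of form was not tested. Such all-or-none assignment also occurred between replicates. Gria1 reads were all on Gria1-202 in the first mock cortex library and all on Gria1-201 in the second.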

How the data were processed

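RNA of 12 libraries was primed from the poly(A) side with a biotinylated primer, per the labels' protocols, which places reads near transcript ends, and the labels describe no molecular identifiers. Salmon 0.14.1, cutadapt 2.3, DESeq2 and the build mm10 are named in the submitters' processing notes. The annotation release and whether counting used strand are not given in the sources used here. Estimated counts were deposited by the authors per transcript and library, not normalized between libraries, and Salmon divides reads shared by transcripts. The TPM values deposited by the authors are per effective length within each library, and were used as weights for the length offset.

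Of 140658 transcripts, 140137 matched GENCODE M21 on GRCm38, 216 of them without the version number, and 521 were left out. Estimated counts were summed per gene and rounded to whole numbers. Genes were kept with filterByExpr (count minimum 10, total minimum 15), which left 14607, and TMM factors of mock libraries were 1.22 to 1.69 and those of shPTB 0.680 to 0.953. With edgeR 4.0.16 (R 4.3.3), a quasi-likelihood model of all 6 groups was fitted (common dispersion 0.055, 6 residual degrees of freedom), which share an estimate of the spread, and gave 11 contrasts. Benjamini-Hochberg adjustment ran over all genes of a contrast, and calls are at 0.05. Each adjusted p printed is from this test unless another tool is named. The SE is the absolute log2 fold change over the square root of F. The script was tested on simulated data.

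The genes, lists and tests were chosen with earlier results of these data known. Genes called against mock (22, while 3 tested genes enter the counts and sums but are not reported here) are given by library, or by reads per group where reads are few, with the member of most reads in each family. Folds against 0 reads use 3 reads over the group as the floor, and with 1 to 3 reads the ratio has an exact 95% interval, which covers counting error only. The last 500 bases of each gene's main transcript were compared with other transcripts in words of 31 bases. Promoters are from RefSeq. Alternatives were DESeq2 1.42.0, other scalings and filters, a length offset, a replicate block, smaller sets of groups or libraries and, added later, complete coding transcripts.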

Additional observations from a re-analysis of the deposited data

Results flagged for a closer look

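In 3 results the midbrain response to shPTB differed from the cortical one by the test of the difference itself (edgeR). Gabbr2 was lower in its midbrain response by -3.12 at 2 weeks (log2, adjusted p = 0.0142) and by -2.55 at 4 weeks (adjusted p = 0.0268). Its cortical libraries stood at 0.755 and 1.35 CPM in mock and at 9.36 and 8.60 CPM at 2 weeks, and its midbrain libraries at 10.9 and 20.7 and at 16.0 and 15.4 CPM. Gria1 had a difference of -1.80 at 4 weeks (adjusted p = 0.00728), with cortex at 11.8 and 17.9 CPM in mock and 91.0 and 102 CPM at 4 weeks, and midbrain at 28.3 and 26.4 and at 55.1 and 47.5 CPM. Every alternative kept the sign of all 3: Gabbr2 ranged from -3.56 to -2.58 and from -2.99 to -2.01, and Gria1 from -2.17 to -1.27. The calls did not hold as widely. All 3 were lost when only the groups compared were fitted, and each depended on single libraries, as given above.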

How the results depend on the processing

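With 2 libraries a group, leaving out 1 library limits these results most. The counts of called receptor genes then ranged from 13 to 19 and 15 to 22 in cortex and 10 to 15 and 11 to 16 in midbrain against mock at 2 and 4 weeks, from 3 to 5 between the mock regions, and were 2 between the regions at 4 weeks, 0 to 1 and 0 to 2 for the differences of the responses at 2 and 4 weeks, and 0 in the 2-week region and both 4 against 2 weeks comparisons. Where a comparison was left with 0 calls by edgeR in some setting, 2 to 11 of its genes had an unadjusted p under 0.05, and DESeq2 called 5 in cortex and 1 in midbrain between 4 and 2 weeks, 6 between the mock regions, 3 between the regions at 2 weeks, and 1 and 2 for the differences of the responses at 2 and 4 weeks. A lone library was assumed to vary like the other groups.

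Other settings moved the smaller comparisons by over 1.5 times. Cortex at 4 against 2 weeks gave 7 calls with scaling to total reads, 1 with a length offset and 11 with only the groups compared. Midbrain at 4 against 2 weeks gave 4 with total reads, 1 with DESeq2, 4 without a count filter, 1 with a length offset, 15 with only the groups compared and 0 with complete coding transcripts. Mock midbrain against cortex gave 3 with a length offset, 0 with only the groups compared, 8 without both mock libraries numbered 1 and 3 with coding transcripts. Midbrain against cortex gave 0 with a length offset and 9 with only the groups compared at 2 weeks, and 8 with only the groups compared and 3 with coding transcripts at 4 weeks. The difference of the responses gave 0 at 2 weeks with only the groups compared, 3 without both mock libraries numbered 1 and 5 without both numbered 2, and at 4 weeks 1 with a length offset and 0 with only the groups compared. Counts over all genes moved too. With only the groups compared, 2608 of 10858 genes were called in cortex and 3903 of 12085 in midbrain between 4 and 2 weeks. Between the regions, 3209 of 11986 genes were called at 2 weeks and 3681 of 10996 at 4 weeks in such fits. With scaling to total reads, 933 genes in cortex and 500 in midbrain were called between 4 and 2 weeks, of 14607. Why these counts moved was not tested, beyond the fewer libraries in some fits.

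Among 110 single-gene results of 22 genes, 90 were called, and 33 of the 68 calls against mock kept their call and direction in every alternative, among them all 4 of Chrna3, Chrnb4, Gabra5 and Grm4. Directions turned mostly where the main value was near 0. Gabbr2 in midbrain at 2 weeks became 0.0015 with a strict count filter, 0.025 with a length offset, 0.030 with the replicate block, 0.53 without both mock libraries numbered 2, 0.042 with coding transcripts and -0.41 to 0.52 when single libraries were left out (0.014 without the second 2-week library). With scaling to total reads, Gabrb1 became -0.12 in cortex and -0.050 in midbrain at 2 weeks, Gria2 -0.069 and Gria3 -0.66 in midbrain at 2 weeks, Grik5 -0.52 in cortex and -0.16 in midbrain at 2 weeks, Grin2a -0.17 in cortex at 4 weeks, and Grm5 -0.55 in cortex and -0.29 in midbrain at 2 weeks. With coding transcripts, Gria2 became 0.90 and 0.55 in cortex and 1.90 in midbrain at 4 weeks, and Gria3 -1.39 in midbrain at 2 weeks. Grm5 became -1.23 in cortex and -0.99 in midbrain at 2 weeks with coding transcripts. Grik5 became 9.25 in cortex and 6.03 in midbrain at 4 weeks and 0 in midbrain at 2 weeks with coding transcripts. These Grik5 values are fitted against 0 coding reads in all 4 mock libraries, without the floor of 3 reads, and give no size of change. At 4 weeks Grik5 had 0 and 80 coding reads in cortex and 0 and 12 in midbrain, so each value rests on 1 library. Midbrain at 2 weeks had 0 coding reads in both libraries. Gria3 in midbrain at 2 weeks was also -0.055 without a count filter, -0.13 without both mock libraries numbered 2, and -0.14 to 0.19 when single libraries were left out (-0.099 without the second 2-week library). Grid2ip in midbrain at 2 weeks became 0.13 with a length offset. Grik5 in cortex at 4 weeks became 0.00052 with the replicate block, 0.17 without both mock libraries numbered 2, and 0.17 and 0.08 without the second mock or second 4-week library. Grin2a in cortex at 4 weeks ran from -3.19 without the second 4-week library to 3.89 without the first mock library. Mock cortex held 3 and 0 reads of Grin2a and cortex at 4 weeks 0 and 2. Both ends of this range are thus fitted folds against 0 reads, without the floor of 3 reads. Grm5 in cortex at 2 weeks became -0.19 with a length offset, -0.013 without both mock libraries numbered 1, and -0.38 to 0.54 when single libraries were left out (-0.021 without the first mock library). The cause of these turns was not tested.

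Libraries with the same number deviated together between the mock regions (r = 0.715 across genes), and hardly elsewhere (-0.027 to 0.031), so the numbers go together for the mock libraries of the 2 regions and were not taken to pair the samples across all groups. The replicate block gave 18, 23, 18 and 20 calls against mock, and 3, 2, 6, 4, 5, 1 and 2 in the other comparisons, in the order of the report. At these depths, genes with a few reads, such as Grin2b, Grin3b, Chrnb2 and Grid2ip, carry wide intervals.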
